A study of Arabidopsis thaliana with 4 samples.

Results

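Proline is an amino acid that many plants accumulate when water is short, and in Arabidopsis its level is set by synthesis, breakdown and transport. In the main synthesis route, Δ1-pyrroline-5-carboxylate synthetase (P5CS) converts glutamate and P5C reductase (P5CR) completes proline, while ornithine aminotransferase (OAT) can supply the same intermediate from ornithine. Breakdown takes place in mitochondria, where proline dehydrogenase (PRODH) and P5C dehydrogenase (P5CDH) return proline to glutamate, and the PROT carriers move proline across the plasma membrane. The 9 genes described here were listed by locus and role, by a rule that uses no measured value, although earlier results of these data were known when the list was made. They are *P5CS1*, *P5CS2*, *P5CR* and *OAT* on the side of synthesis, *PRODH1*, *PRODH2* and *P5CDH* on the side of breakdown, and the transporters *PROT1* and *PROT2*. All 9 were found among the 27655 genes of the deposited table.

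Leaves of *Arabidopsis thaliana* grown on soil for 3 weeks gave 4 mRNA libraries, 1 per condition. WT (ecotype Columbia) was sampled before treatment (0 h, called untreated WT) and 6 h after watering with 20% polyethylene glycol (PEG), which lowers the water available to the roots. An *AtBBD1* overexpression line (OX5-4, labelled p35S:AtBBD1) and the T-DNA knock-out *atbbd1* were sampled after 6 h of PEG only. OX5-4 is a single homozygous line, in which the transgene is driven, per the study's methods, by a promoter of cassava vein mosaic virus. The RNA of a library was pooled over leaves of several plants. With no replicate library there is no measure of the variation between plants, so no p-value was computed. No 6 h library without PEG is among the 4, so in WT the effects of PEG and of time of day cannot be told apart.

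Levels are in FPKM, a count of sequenced fragments divided by transcript length and by library size, so genes can be set side by side. Whole reads were rebuilt from the FPKM steps at estimated totals of 15353000 to 17703000 fragments per library, and a ratio is given with its exact 95% interval from these reads, which covers counting error only. A gene is called higher or lower at a 2-fold difference or more, among the 16374 genes that reached 1 FPKM in at least 1 library. All 9 proline genes passed this filter, *PRODH2* only through untreated WT. *AtBBD1* was at 95.5, 541, 631 and 36.6 FPKM in untreated WT, PEG-treated WT, OX5-4 and *atbbd1*. It was thus 14.8-fold lower in *atbbd1* than in PEG-treated WT (13.9 to 15.7), but only 1.17-fold of WT in OX5-4 (1.14 to 1.19), close to the 1.15-fold of its paralog *AtBBD2*, so in these libraries the targeted gene does not separate OX5-4 from WT by much. A separate transcript measurement of this line by the study was not used here. Within these data, a direction drawn from OX5-4 rests on its label. The mesophyll markers *RBCS1A*, *RCA*, *LHCB1.1* and *LHCB2.1* were at 1989.9 FPKM or more in every library, whereas none of the 5 root markers reached 1 FPKM, and 5 of the 6 flower and meristem markers were at 0 throughout. The median log2 ratio of all genes was 0.04 for PEG in WT, 0.02 for OX5-4 against WT and −0.11 for *atbbd1* against WT, and that last offset applies to each *atbbd1* ratio below.

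Upstream sequence is shown for 4 of the genes that hold letters known from drought and proline promoters. *P5CR* and *PROT1* held such letters too and are described below without their sequence. The stretch shown for *P5CS1* lies before an inner annotated start. ACGTG is the core of the ABA-responsive element, CCGAC the core of the dehydration-responsive element, and ACTCAT an element described in the *PRODH1* promoter that is bound by bZIP factors of the S1 group. The letters were looked for on both strands of the 250 bases before the annotated start of each gene (RefSeq annotation of TAIR10.1, which is also the build of all positions given here). Of 27444 genes, 22.9% held ACGTG in a window of this length. CCGAC was found in 12% and the letters ACTCAT in 12.3%. Capitals mark the letters found, also where they stand for the opposite strand.
PRODH1, minus strand, chr3:12451557-12451806: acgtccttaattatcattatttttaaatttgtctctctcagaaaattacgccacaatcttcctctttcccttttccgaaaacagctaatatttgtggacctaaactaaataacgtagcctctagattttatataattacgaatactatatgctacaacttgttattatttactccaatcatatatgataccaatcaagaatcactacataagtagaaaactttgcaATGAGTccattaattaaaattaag
P5CDH, minus strand, chr5:25103313-25103562: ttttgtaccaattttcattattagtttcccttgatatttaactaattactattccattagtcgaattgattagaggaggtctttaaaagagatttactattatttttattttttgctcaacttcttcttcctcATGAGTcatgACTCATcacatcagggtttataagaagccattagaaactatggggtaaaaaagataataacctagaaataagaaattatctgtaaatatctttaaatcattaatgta
P5CS2, minus strand, chr3:20629296-20629545: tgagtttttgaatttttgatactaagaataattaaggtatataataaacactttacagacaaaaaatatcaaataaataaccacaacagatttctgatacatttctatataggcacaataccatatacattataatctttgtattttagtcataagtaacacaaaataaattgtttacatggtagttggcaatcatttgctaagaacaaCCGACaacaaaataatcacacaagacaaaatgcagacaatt
P5CS1, minus strand, chr2:16603131-16603160: cccttagttccaCACGTGgcgtttcctggt

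ACTCAT stood before *PRODH1* once and before *P5CDH* 2 times, and before none of the other 7 genes. The *PRODH1* copy lies on the opposite strand at 24 to 19 bases before the start, and whether it is the described element was not tested. In *P5CDH* a copy on the opposite strand is followed after 4 bases by a copy on the same strand. The window of *P5CS2* held CCGAC at 41 to 37 bases before the start. The outermost start annotated for *P5CS1* had none of the 3 motifs before it, but that start belongs to 1 of 4 transcripts. A start 258 bases further in is shared by 2 transcripts, and 87 to 82 bases before it lies the palindrome CACGTG, which holds ACGTG on both strands and is shown above with its 30-base surroundings. Among the remaining members, *P5CR* held each of the ABA-responsive and dehydration-responsive cores once, *PROT1* held the ABA-responsive core once, and *OAT*, *PRODH2* and *PROT2* held no match in the window. Other annotated starts change this for 2 transporters, since a *PROT2* start 497 bases further in has CCGAC before it and a *PROT1* start 771 bases further in has none of the motifs. The shares over all genes hold for the outermost starts only. A match is a description of letters, and no binding was measured here.

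In WT, *P5CS1* was at more than 2-fold its 0 h level after PEG while its paralog *P5CS2*, the reductase gene *P5CR* and both proline dehydrogenase genes were lower. Thus 1 of the 9 genes was higher and 4 were lower, where 16.1% of all genes tested were higher and 15.9% lower. Of the 4, *PRODH2* passed the filter only through untreated WT, so it could not have been called higher. After PEG, the synthesis genes *P5CS1*, *P5CS2* and *OAT* were all highest in OX5-4 and lowest in *atbbd1*, and *PRODH1* was lowest in OX5-4. In whole leaves, less RNA per cell and fewer cells that express a gene cannot be told apart. The plot of FPKM shows these levels for each gene.

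**Figure D1:**
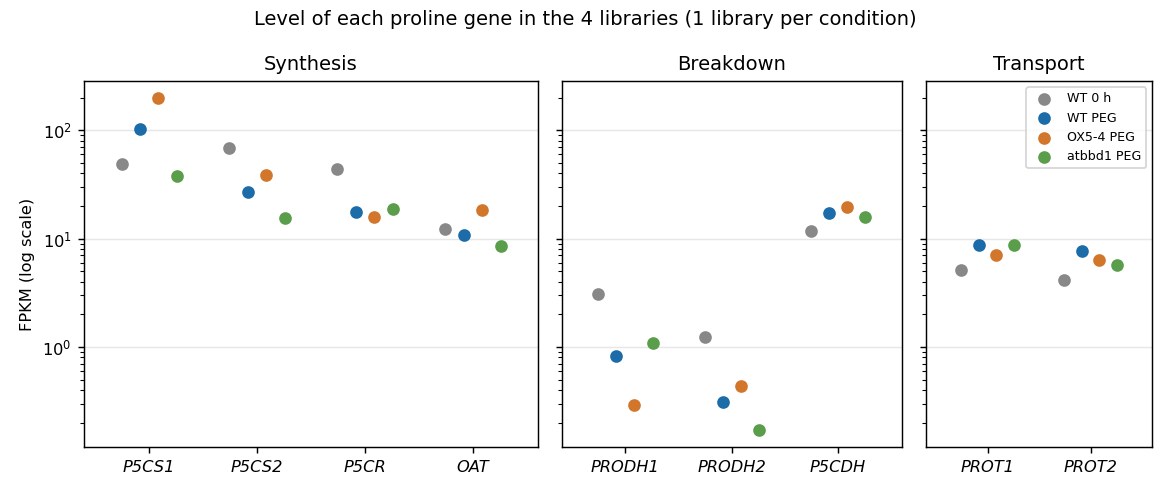
FPKM of the 9 proline genes on a log axis, 1 point per library, in untreated WT (grey), WT after PEG (blue), OX5-4 after PEG (orange) and *atbbd1* after PEG (green). *P5CS1* spans 38.2 to 201 FPKM, and *PRODH1* spans 0.29 to 3.09 FPKM with its lowest value in OX5-4.

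On the side of synthesis, *P5CS1* (AT2G39800, chr2:16598072-16603319, minus strand) encodes the P5CS isoform that is known for induction by drought and ABA. It was at 48.9 FPKM in untreated WT, 102 FPKM in PEG-treated WT, 201 FPKM in OX5-4 and, in *atbbd1*, 38.2 FPKM. The OX5-4 library was the highest, and *atbbd1* after PEG lay below even untreated WT. In WT the gene was 2.1-fold higher after PEG (1.99 to 2.20). OX5-4 was 1.96-fold of WT after PEG (1.89 to 2.03), just under the 2-fold threshold but above 97.4% of all gene ratios in that comparison. In *atbbd1* it was 2.68-fold lower than in PEG-treated WT (2.54 to 2.83), with 2.92% of gene ratios lying lower still. It was also 1.28-fold lower than in untreated WT (1.2 to 1.36), and OX5-4 exceeded *atbbd1* 5.25-fold (5.0 to 5.52). No neighbouring levels in the order OX5-4, WT after PEG, untreated WT and *atbbd1* were within counting error of each other. A neighbouring gene of the opposite strand, AT2G39795, overlaps the *P5CS1* locus by 91 bases and was at 4.54 to 11.2 FPKM.

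*P5CS2* (AT3G55610, chr3:20624020-20629295, minus strand) encodes the second P5CS isoform, usually described as the housekeeping copy. It was at 69.0 FPKM in untreated WT, 27.3 FPKM in PEG-treated WT, 39.1 FPKM in OX5-4 and, in *atbbd1*, 15.7 FPKM. Untreated WT was thus the highest, opposite to *P5CS1*, while the 3 PEG libraries kept the order of *P5CS1*. In WT it was 2.53-fold lower after PEG (2.37 to 2.71). OX5-4 was 1.44-fold of WT after PEG (1.33 to 1.54) and *atbbd1* was 1.74-fold lower (1.59 to 1.91), so neither line passed 2-fold against WT, but OX5-4 was 2.5-fold of *atbbd1* (2.30 to 2.72). The transcripts of *P5CS1* and *P5CS2* share no exact run longer than 53 bases, and 0.133% of the 50-base words of *P5CS1* also occur in *P5CS2*. A gene of the opposite strand, AT3G55605, overlaps *P5CS2* by 32 bases and was at 2.06 to 8.28 FPKM.

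Since FPKM is a level per length, both copies can be set side by side within a library. *P5CS1* made up 41.4% of the summed FPKM of *P5CS1* and *P5CS2* in untreated WT (exact counting interval 40.1 to 42.8). Its share was 79.0% in PEG-treated WT (77.9 to 80.0), 83.7% in OX5-4 (83.0 to 84.3) and 70.9% in *atbbd1* (69.1 to 72.7). The summed level of the 2 genes was 118, 130, 240 and 53.8 FPKM in the same order. In WT the sum therefore differed little between 0 h and PEG while its makeup turned from mostly *P5CS2* to mostly *P5CS1*. In *atbbd1* after PEG the makeup was also mostly *P5CS1*, at a sum below that of untreated WT.

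**Figure D2:**
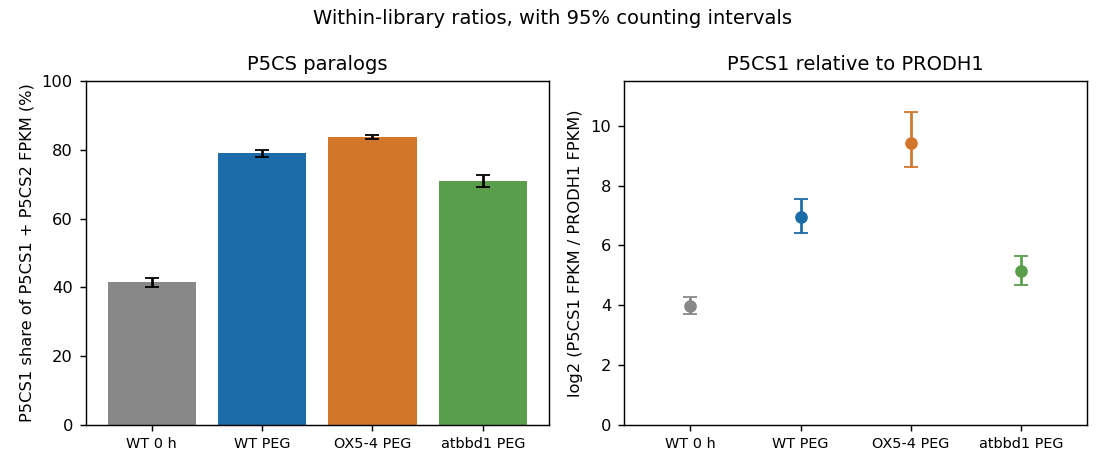
Left, *P5CS1* as a percentage of *P5CS1* plus *P5CS2* FPKM in each library. Right, log2 of *P5CS1* FPKM over *PRODH1* FPKM. Error bars are exact 95% counting intervals. The share is 41.4% in untreated WT and 70.9% to 83.7% in the 3 PEG libraries, and the log2 ratio runs from 3.98 in untreated WT to 9.43 in OX5-4.

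*P5CR* (AT5G14800, chr5:4785960-4787996, minus strand) encodes the reductase that completes proline. It was at 44.1 FPKM in untreated WT, 17.6 FPKM in PEG-treated WT, 15.8 FPKM in OX5-4 and, in *atbbd1*, 18.8 FPKM. The 3 PEG libraries lay close together, all below untreated WT. In WT it was 2.5-fold lower after PEG (2.23 to 2.82), and the intervals of its ratios to WT in OX5-4 (0.898, 0.780 to 1.03) and in *atbbd1* (1.06, 0.93 to 1.22) included 1. OX5-4 was 1.19-fold lower than *atbbd1* (1.04 to 1.36), opposite in direction to *P5CS1*. The *P5CR* level was 0.903 of the *P5CS1* level in untreated WT (0.837 to 0.974) and 0.0789 of it in OX5-4 (0.0712 to 0.0871).

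*OAT* (AT5G46180, chr5:18718417-18721744, minus strand) encodes the mitochondrial aminotransferase that links ornithine to the proline intermediate. It was at 12.3 FPKM in untreated WT, 10.8 FPKM in PEG-treated WT, 18.6 FPKM in OX5-4 and, in *atbbd1*, 8.47 FPKM. The ratio of WT after to before PEG had an interval that included 1 (0.878, 0.761 to 1.01), while OX5-4 stood above and *atbbd1* below both WT libraries. OX5-4 was 1.72-fold of WT after PEG (1.52 to 1.96), above 96.3% of all gene ratios. In *atbbd1*, *OAT* was 1.27-fold lower than in WT (1.09 to 1.48), but 24.1% of gene ratios lay lower still. OX5-4 was 2.19-fold of *atbbd1* (1.92 to 2.50). *OAT* was thus the only one of the 4 synthesis genes that separated the genotypes without a difference between the WT libraries beyond counting error.

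On the side of breakdown, *PRODH1* (AT3G30775, chr3:12448636-12451556, minus strand) encodes the main proline dehydrogenase, the first enzyme of proline oxidation, and is known to be repressed when water is short. It was at 3.09 FPKM in untreated WT, 0.82 FPKM in PEG-treated WT, 0.29 FPKM in OX5-4 and, in *atbbd1*, 1.08 FPKM, from 103, 28, 11 and 40 reads. Untreated WT was the highest and OX5-4 the lowest, so the PEG libraries ran in the reverse order of *P5CS1*. In WT it was 3.77-fold lower after PEG (2.46 to 5.93). In OX5-4 it was 2.83-fold lower than in PEG-treated WT (1.39 to 6.39), and 0.392% of gene ratios lay lower. *atbbd1* was 1.32-fold of WT after PEG, with an interval that included 1 (0.793 to 2.22), and OX5-4 was 3.72-fold lower than *atbbd1* (1.90 to 8.17). The few reads set wide limits on these ratios, and a pseudocount of 1 FPKM takes the OX5-4 ratios below 2-fold.

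*PRODH2* (AT5G38710, chr5:15501126-15504269, plus strand) encodes the second proline dehydrogenase. It was at 1.23 FPKM in untreated WT, 0.31 FPKM in PEG-treated WT, 0.44 FPKM in OX5-4 and, in *atbbd1*, 0.17 FPKM, from 39, 10, 16 and 6 reads. The levels after PEG were all below untreated WT, and their order was that of *P5CS1*, not of *PRODH1*. In WT it was 3.97-fold lower after PEG (1.95 to 8.96). Its ratios to WT after PEG were 1.42 in OX5-4 (0.605 to 3.50) and 0.548 in *atbbd1* (0.165 to 1.68), and OX5-4 was 2.59-fold of *atbbd1* (0.953 to 8.0), differences that were not detectable at this depth. Of the summed FPKM of both dehydrogenase genes, *PRODH1* made up 72.6% in PEG-treated WT (55.7 to 86.0), 39.7% in OX5-4 (21.5 to 60.0) and 86.4% in *atbbd1* (72.8 to 94.8). The makeup thus differed between OX5-4 and *atbbd1* beyond counting error, whereas the interval of WT overlapped both.

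*P5CDH* (AT5G62530, chr5:25099003-25103312, minus strand) encodes the dehydrogenase of the last breakdown step. It was at 11.7 FPKM in untreated WT, 17.1 FPKM in PEG-treated WT, 19.6 FPKM in OX5-4 and, in *atbbd1*, 16.0 FPKM. Unlike the genes of the preceding step, it was lowest in untreated WT and no pair of libraries differed 2-fold. In WT it was 1.47-fold of its 0 h level after PEG (1.30 to 1.65), OX5-4 was 1.15-fold of WT (1.04 to 1.27), and *atbbd1* was 0.933 of WT (0.839 to 1.04), close to the median of all genes in that comparison. The gene *SRO5* (AT5G62520) lies on the opposite strand and overlaps the locus by 905 bases, a pair known for antisense regulation under salt stress. *SRO5* was at 0.07, 0.14, 0.82 and 0.20 FPKM in untreated WT, PEG-treated WT, OX5-4 and *atbbd1*. It was highest in OX5-4 but under 1 FPKM in all 4 libraries. The paper names a stranded library kit and mapping at default settings, and the strand setting of the counting step was not found in the sources read.

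Setting the first enzyme of synthesis against the first of breakdown, the *P5CS1* level was 15.8-fold of the *PRODH1* level in untreated WT (13.0 to 19.5). It was 125-fold in PEG-treated WT (86.2 to 188), and 691-fold in OX5-4 (392 to 1406), whereas *atbbd1* had 35.3-fold (25.8 to 49.6). The intervals of the 4 libraries did not overlap, and *atbbd1* after PEG lay between untreated and PEG-treated WT. With no replicate, this order holds for these libraries and was not tested for the genotypes.

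The transporters *PROT1* (AT2G39890, chr2:16655577-16658412, plus strand) and *PROT2* (AT3G55740, chr3:20695433-20698292, plus strand) encode plasma membrane carriers of proline and other compatible solutes. *PROT1* was at 5.09 FPKM in untreated WT, 8.72 FPKM in PEG-treated WT, 7.14 FPKM in OX5-4 and, in *atbbd1*, 8.71 FPKM. *PROT2* had 4.18, 7.66, 6.31 and 5.73 FPKM in these libraries. Both were lowest in untreated WT, and neither differed 2-fold between any 2 libraries. In WT, *PROT1* was 1.71-fold (1.41 to 2.09) and *PROT2* 1.83-fold (1.5 to 2.25) of the 0 h level after PEG. In OX5-4 they were 1.22-fold (1.03 to 1.45) and 1.21-fold (1.02 to 1.44) lower than in WT, so the line with the highest *P5CS1* level lay slightly below WT for both transporters. In *atbbd1*, *PROT1* was 0.999 of WT (0.851 to 1.18) and *PROT2* was 1.34-fold lower (1.12 to 1.59). The *PROT1* level was 1.52-fold of the *PROT2* level in *atbbd1* (1.28 to 1.81), whereas in the other 3 libraries the intervals of this ratio included 1.

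*PROT3* (AT2G36590), the third gene of the family, behaved otherwise. It was at 3.46 FPKM in untreated WT, 0.57 FPKM in PEG-treated WT, 1.76 FPKM in OX5-4 and, in *atbbd1*, 0.88 FPKM. It was 6.07-fold lower in PEG-treated WT (3.63 to 10.6) and, in OX5-4, 3.09-fold of the WT level (1.78 to 5.49), from 18 and 62 reads. In *atbbd1* its ratio of 1.54 had an interval that included 1 (0.829 to 2.93). The 3 PROT genes share no exact run longer than 38 bases, and *PROT1* and *PROT2* none longer than 26 bases. *PROT1* is known to be expressed in vascular tissue, and the vascular markers moved between these libraries. All 7 that passed the filter were above PEG-treated WT in *atbbd1*, as were 35.3% of all genes. Of the 7 markers, 2 were at least 2-fold higher (*SUC2* and *PP2-A1*), as were 1.07% of all genes. The summed level of the 9 markers was 219, 97.6, 110 and 177 FPKM in untreated WT, PEG-treated WT, OX5-4 and *atbbd1*. Their part in the transporter values was not tested.

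**Figure D3:**
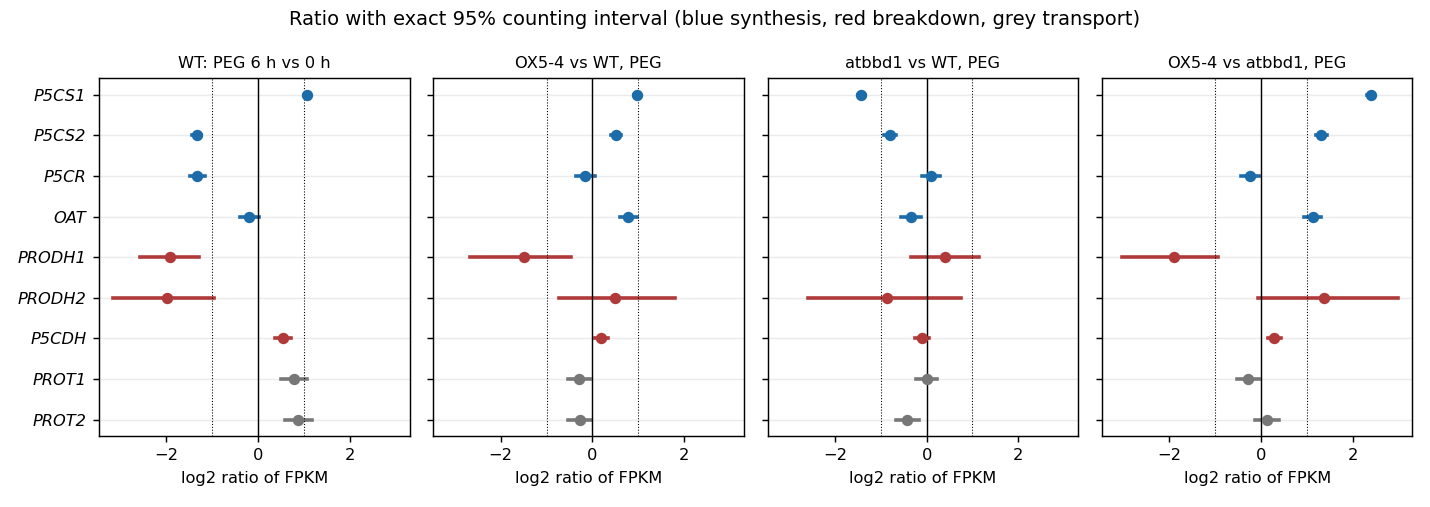
Log2 ratio of FPKM (points) with the exact 95% counting interval (bars) for the 9 genes in 4 comparisons, with dotted lines at 2-fold. Bars of *PRODH1* and *PRODH2* are wide because few reads stand behind them, and the *P5CS1* points lie at 1.07, 0.97, −1.42 and 2.39 from left to right.

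Between genotypes, few of the 9 genes passed 2-fold against WT. In OX5-4, 0 were higher and 1 (*PRODH1*) was lower, where 2.45% of all genes were higher and 1.31% lower. In *atbbd1*, 0 were higher and 1 (*P5CS1*) was lower, where 1.07% were higher and 5.29% lower. The counting interval excluded 1 for 7 of the 9 genes in OX5-4 and for 4 in *atbbd1*, where it did so for 32.2% and 43.6% of all genes, a share that depends on the reads behind each gene. Both comparisons use the same WT library.

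With untreated WT as the base, 1 gene was higher in OX5-4 (*P5CS1*, 4.1-fold, interval 3.92 to 4.3) and 3 were lower (*P5CR*, *PRODH1* and *PRODH2*), where 17.4% of all genes were higher and 16.3% lower. *PRODH1* stood farthest from its untreated level, 10.7-fold lower (5.79 to 22.3). In *atbbd1* the corresponding numbers were 0 and 4 (*P5CS2*, *P5CR*, *PRODH1* and *PRODH2*), where 13.2% were higher and 18.9% lower. *P5CS2* was 4.41-fold lower there (4.07 to 4.79). Relative to untreated WT, *P5CS1* therefore lay far above in OX5-4 and slightly below in *atbbd1*. *P5CR*, *PRODH1* and *PRODH2* were at least 2-fold lower in both lines, as they were in PEG-treated WT. *P5CS2* was lower in OX5-4 too, by 1.76-fold (1.67 to 1.87). Genotype, PEG and time of day all differ from untreated WT here and cannot be told apart. *PRODH2* passed the filter only through untreated WT, so with this base it could not have been called higher.

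Setting OX5-4 directly against *atbbd1* leaves the WT libraries out of the ratio, though not out of the 1 FPKM filter. Here 4 genes were 2-fold higher (*P5CS1*, *P5CS2*, *OAT* and *PRODH2*) and *PRODH1* was lower. Of all genes, 7.33% were higher and 1.28% lower. *PRODH2* had an interval that included 1. It was under 1 FPKM in both lines and passed the filter only through untreated WT. The 4 synthesis genes had a median log2 ratio of 1.23 and the 3 breakdown genes of 0.29, beside 0.11 for all genes. *OAT*, at 1.13, is counted with synthesis here, and both medians depend on that placement. The breakdown median hides opposite members, *PRODH1* at −1.90 and *PRODH2* at 1.37, the latter not beyond counting error. The plot of the proline genes among all genes places *PRODH1* at the low edge of the distribution in OX5-4, and *P5CS1* and *OAT* toward its high side there. In *atbbd1*, *P5CS1* was the member farthest out on the low side, whereas *PRODH1* was above 92.3% of gene ratios with an interval that included 1.

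**Figure D4:**
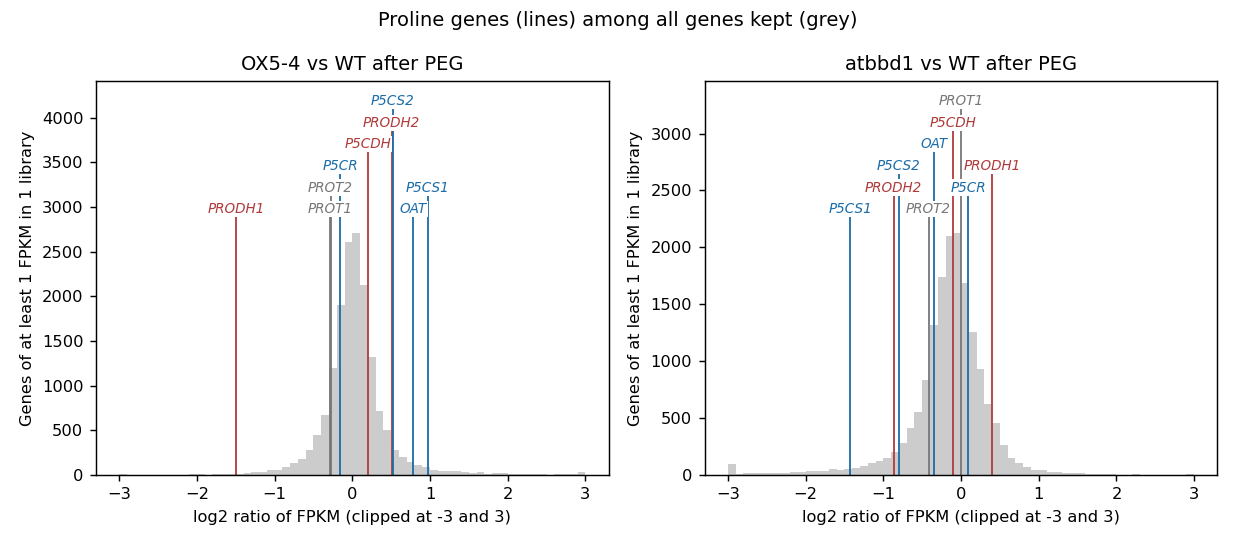
Distribution of log2 FPKM ratios of all genes kept (grey, number of genes per bin) for OX5-4 and *atbbd1* against WT after PEG, with a line for each proline gene (blue synthesis, red breakdown, grey transport). In OX5-4 *PRODH1* lies at −1.50 and *P5CS1* at 0.97, and in *atbbd1* *P5CS1* lies at −1.42.

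Lists of genes around the pathway were counted the same way. Beside their counts stand the shares of all genes past 2-fold, which were 16.1% higher and 15.9% lower for PEG in WT, 2.45% and 1.31% for OX5-4 against WT, and 1.07% and 5.29% for *atbbd1* against WT. For lists this short, a count of 0 between a line and WT is near these shares. Of 10 expressed genes of glutamate and glutamine supply, 4 were higher and 2 lower in PEG-treated WT, and none passed 2-fold between either line and WT. *GLN1;2*, a cytosolic glutamine synthetase, was 4.50-fold lower after PEG (535 and 119 FPKM), and *GDH2*, a glutamate dehydrogenase subunit, was 3.98-fold higher (2.04 and 8.12 FPKM). Between OX5-4 and *atbbd1*, the cytosolic glutamine synthetase *GLN1;3* was the exception, at 9.90 FPKM in PEG-treated WT, 13.5 FPKM in OX5-4 and, in *atbbd1*, 6.29 FPKM, 2.15-fold apart in the lines (1.79 to 2.60). Relative to WT, the median log2 ratio of the list was −0.14 for OX5-4 and −0.02 for *atbbd1*, beside 0.02 and −0.11 for all genes.

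Of the 9 genes that make ornithine and arginine, 0 passed 2-fold between a line and WT, with list medians of −0.13 in OX5-4 and 0.15 in *atbbd1*. In *atbbd1*, 7 of the 9 lay above WT, as did 35.3% of all genes. The argininosuccinate synthase *ASS* (8.89, 9.26 and 12.6 FPKM in WT, OX5-4 and *atbbd1*) was highest there, at 1.42-fold of WT (1.21 to 1.66), and *NAGS1*, an acetylglutamate synthase, was lowest at 1.27-fold below WT (1.06 to 1.51). In OX5-4 the lowest ratio was that of the acetylglutamate kinase *NAGK* (12.4, 9.86 and 14.5 FPKM). In WT, *ASS* and the argininosuccinate lyase *ASL* were 4.71-fold and 5.28-fold lower after PEG. Both were closer to WT in OX5-4 than in *atbbd1*, unlike *OAT*.

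Of 5 genes of arginine breakdown, which releases ornithine in mitochondria, 1 passed 2-fold upward between WT and OX5-4, and none differed 2-fold between *atbbd1* and WT. That gene, *BAC2*, a mitochondrial carrier of basic amino acids, was at 0.07, 0.32, 2.67 and 0.23 FPKM in untreated WT, PEG-treated WT, OX5-4 and *atbbd1*, from 2, 9, 85 and 7 reads. OX5-4 exceeded WT 8.34-fold (4.21 to 18.9) and *atbbd1* 11.6-fold (5.43 to 29.9). *BAC2* passed the filter only through OX5-4, the library in which it was high. The arginase gene *ARGAH2* was at 231, 25.8, 44.7 and 22.2 FPKM, 8.98-fold lower in PEG-treated WT (8.35 to 9.67) and 2.02-fold apart between OX5-4 and *atbbd1* (1.85 to 2.20). The second arginase gene, *ARGAH1*, was at 12.7 to 14.7 FPKM in all 4 libraries. The list median relative to WT was 0.07 for OX5-4 and −0.15 for *atbbd1*.

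Among the amino acid carriers that also accept proline, 5 of the 6 expressed genes were lower in PEG-treated WT and *LHT1* was higher (1.77 and 6.70 FPKM). The number past 2-fold between a line and WT was 0, near the share over all genes. *AAP1*, which takes up neutral amino acids including proline, followed the order of *P5CS1* after PEG (17.1, 29.5 and 12.4 FPKM in WT, OX5-4 and *atbbd1*) and was 2.37-fold of *atbbd1* in OX5-4 (2.11 to 2.67). *AAP2*, a phloem carrier, ran the other way (20.1, 13.8 and 36.2 FPKM, 2.63-fold lower in OX5-4 than in *atbbd1*), as did *AAP6* (7.38, 4.3 and 9.41 FPKM).

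**Figure D5:**
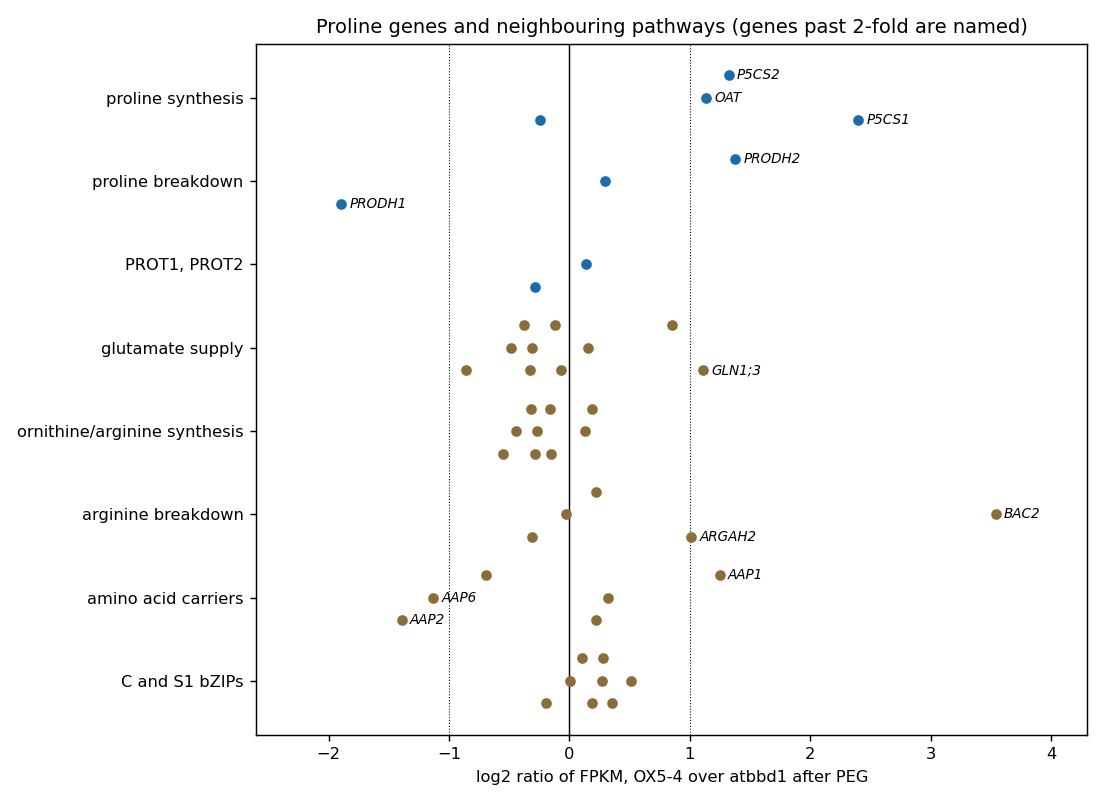
Log2 FPKM ratio of OX5-4 over *atbbd1* after PEG for the proline genes (blue) and the expressed genes of neighbouring lists (brown), 1 point per gene, with dotted lines at 2-fold and names for genes beyond them. *BAC2* at 3.54 and *P5CS1* at 2.39 lie farthest to the right and *PRODH1* at −1.90 farthest to the left.

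The C and S1 bZIP factors include known binders of the ACTCAT element described in the *PRODH1* promoter. They had 8 expressed genes, of which 0 passed 2-fold between genotypes, a count near the share over all genes. In WT, *bZIP1* (6.76 and 20.1 FPKM) and *bZIP11* (1.43 and 4.32 FPKM) were higher after PEG and *bZIP2* was lower (133 and 47.8 FPKM), while *PRODH1* was lower. Their medians were 0.10 in OX5-4 and −0.12 in *atbbd1* relative to WT, and *bZIP9* (21.4, 17.5 and 16.3 FPKM in WT, OX5-4 and *atbbd1*) had the lowest ratio in both lines. *bZIP53* was at 20.1, 37.6, 39.9 and 31.2 FPKM in untreated WT, PEG-treated WT, OX5-4 and *atbbd1*. *bZIP44*, next to *AtBBD1* on the chromosome, was under 1 FPKM in all 4 libraries. *ASN1*, an asparagine synthetase gene that the same factors are known to activate when energy is low, was at 0.40, 4.98, 3.09 and 5.81 FPKM. It belongs to 7 low-energy genes, of which 6 were 2-fold higher in PEG-treated WT, where 16.1% of all genes were. Another of them, *SEN1*, was lower in both lines than in WT (84.0, 29.3 and 31.4 FPKM), and *DIN10* was 2.21-fold lower in OX5-4 than in *atbbd1*. After PEG the *ASN1* order among the genotypes was that of *PRODH1*, but between untreated WT and after PEG it moved in the opposite direction.

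Genes known to mark the time of day also differed between the WT libraries. The 3 morning clock genes were all lower after PEG (*LHY* 125 and 0.45 FPKM) and the 4 evening clock genes were all higher (*GI* 1.59 and 39.7 FPKM). Of all genes, 15.9% were lower and 16.1% higher. Between the lines, the summed level of the morning genes was 12.4, 15.0 and 4.65 FPKM in PEG-treated WT, OX5-4 and *atbbd1*. Of these genes *CCA1* had the order of *P5CS1* (3.55, 6.33 and 1.95 FPKM). *PRR9* (8.38, 8.29 and 2.34 FPKM) and *LHY* (0.45, 0.40 and 0.36 FPKM, from 24, 24 and 21 reads) were nearly level between WT and OX5-4. All 3 were below WT in *atbbd1*, as were 64.3% of all genes. *PRR9* was at least 2-fold lower there, as were 5.29% of all genes. The part of the clock in the values of the proline genes was not tested. Of 4 drought markers, *RD29B* and *RAB18* were at 15.8 and 57.5 FPKM in PEG-treated WT, 87.7 and 707 FPKM in OX5-4, and 0.14 and 3.84 FPKM in *atbbd1*. Their range between the lines was wider than that of any proline gene. *RD29A* (422, 616 and 131 FPKM) and *NCED3* (9.38, 18.5 and 2.69 FPKM) had the same order of libraries. The log2 ratio of *RD29A* between the lines was 2.23, less than the 2.39 of *P5CS1*.

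The genes most like *P5CS1* over the 4 libraries were sought among 8629 genes above 0 in every library and at 10 FPKM or more in at least 1, by the distance between log2 FPKM values centred on their mean. The 5 nearest were *PP2CA*, *BETA-VPE*, *MYB96*, AT1G27200 and AT5G03230, at distances of 0.23 to 0.32. Of these, *BETA-VPE*, *MYB96* and AT1G27200 reached 10 FPKM in OX5-4 only, the library in which *P5CS1* was highest. *PP2CA*, a phosphatase gene of ABA signaling, was at 31.5, 78.1, 154 and 29.9 FPKM in untreated WT, PEG-treated WT, OX5-4 and *atbbd1*, and the MYB factor gene *MYB96* at 5.10, 9.63, 18.1 and 4.51 FPKM. For *PRODH1* the nearest were AT2G27402, *NRT1.1*, AT1G28395, AT5G50915 and AT5G46730, at distances of 0.65 to 0.77. All of them except *NRT1.1* reached 10 FPKM in untreated WT only, where *PRODH1* was highest. *NRT1.1*, a nitrate transporter gene, was at 53.4, 11.4, 7.21 and 15.7 FPKM. Likeness over 4 libraries is a description of their order and size only.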

How the data were processed

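Leaf mRNA was sequenced by the authors in 4 libraries, which were grouped by the labels. The deposited unit is FPKM, which the authors computed with Cufflinks after mapping to TAIR10 (HISAT2 in the paper, TopHat2 in the submitters' processing notes). Exon lengths of 27445 genes came from the TAIR10.1 annotation of RefSeq, and 210 organelle IDs had none. Fragment totals were the smallest at which FPKM × exon length × total gave whole reads: 99.0% to 99.4% of values of up to 40 reads lay within 0.15 of a whole number, against 26.5% to 28.2% at other totals (genes of 1 transcript and at most 1000 bases). Totals were 15353000, 15699000, 17703000 and 17028000 for untreated WT, PEG-treated WT, OX5-4 and *atbbd1*. Intervals are Clopper-Pearson intervals of the rebuilt reads (Python 3.11.15, scipy 1.17.1), which need not be independent molecules. The scripts were tested on simulated data.

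Named were the 9 genes, and from the neighbouring lists extremes, genes past 2-fold and the 5 genes most like *P5CS1* and *PRODH1*. *ARGAH1*, *bZIP53*, *ASN1* and *SRO5* were singled out after their values were seen. The members and lists were chosen with earlier results of these data known. Gene order, neighbours and upstream sequence were read from TAIR10.1 alone, since the deposited table holds no coordinates. Alternatives were other FPKM filters, pseudocounts and thresholds, median-of-ratios scaling, rescaling to a common sum, untreated WT as the base, and reads not divided by length.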

Additional observations from a re-analysis of the deposited data

How the results depend on the processing

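No paired analysis was possible because each condition has 1 library. Since no library can be left out, variation between plants stays unknown, and *PRODH1* and *PRODH2* rest on few reads. No log2 ratio of a proline gene past 2-fold changed sign under another filter, pseudocount, scaling or base. With untreated WT as the base, 9 of the 18 ratios of the lines changed sign, all of them ratios under 2-fold against PEG-treated WT. Median-of-ratios scaling changed the sign of 2 small *atbbd1* ratios, *P5CDH* (0.01) and *PROT1* (0.10), and it and the common sum left the counts of genes past 2-fold within 1.5 times.

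The numbers of proline genes past 2-fold did move elsewhere. For PEG in WT, the number lower was 2 with a filter of 5 FPKM, 0 genes were higher and 0 lower at 4-fold, and 3 were higher at 1.5-fold. In OX5-4 against WT, the number lower was 0 with a filter of 5 FPKM, with a pseudocount of 1 FPKM and at 4-fold, and 2 were higher at 1.5-fold. Against untreated WT, 1 gene was higher and 3 were lower in OX5-4, and 4 were lower in *atbbd1*. In *atbbd1* against WT after PEG, 0 were lower at 4-fold and 3 at 1.5-fold. In OX5-4 against *atbbd1*, 0 were lower with a filter of 5 FPKM, with a pseudocount of 1 FPKM and at 4-fold, where 1 was higher. The filter of 5 FPKM removes *PRODH1* and *PRODH2* by construction.

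Without division by length, the *P5CS1* share of both *P5CS* genes was 43.0% in untreated WT, 80.0% in PEG-treated WT and 84.5% in OX5-4, and the log2 ratio of *P5CS1* to *PRODH1* was 4.44 in untreated WT. With a pseudocount of 1 FPKM that log2 ratio was 3.61, 5.83, 7.29 and 4.24 in untreated WT, PEG-treated WT, OX5-4 and *atbbd1*.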
